A study of Mus musculus with 59 samples.

Results

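These results describe mouse bone marrow after 1 dose of baclofen. The samples were the 4 bone marrow arrays labelled baclofen at 1 day and the 4 labelled vehicle at 1 day, 8 of the 59 arrays in the series. All came from B6C3F1 mice. The vehicle was 0.5% methylcellulose, and marrow from the right humerus was taken 2 h after dosing. Further marrow arrays came from mice given 5 daily doses of vehicle (4 arrays) or baclofen (8 arrays), and 4 vehicle and 4 baclofen spleens came from mice given 1 dose. The labels used here give no dose, age or sex, and they do not say whether each array is a separate animal. The p-values therefore measure only the spread between these samples, which may be technical. Values are log2 intensities from whole-genome expression arrays, and ± marks the standard error (SE) of a difference. A gene rose or fell when its limma p was under 0.05 after Benjamini-Hochberg adjustment across the 10916 genes tested.

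Baclofen activates the GABA-B receptor, a G protein-coupled receptor best known from the nervous system, through which the drug relaxes muscle. Bone marrow makes the blood cells, and much of its RNA comes from developing neutrophils, red cell precursors and B cell precursors. Glucocorticoid hormones act on these cells through a nuclear receptor, encoded by Nr3c1, that binds DNA and induces genes such as Per1, Tsc22d3 and Sgk1. In bulk samples, fewer cells of a type and less RNA per cell cannot be told apart.

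The arrays carried the transcripts of the labelled tissue. The neutrophil alarmin gene S100a8 lay between 14.86 and 14.94 in the 8 arrays, and the neutrophil granule gene Camp between 14.70 and 14.83. Alas2, which starts haem synthesis in red cell precursors, lay between 13.06 and 13.60. The hepatocyte genes had a mean of 5.04 to 5.15. No 2 of the 20 marrow arrays were identical, and they correlated at 0.968 to 0.996 across genes (genes are no independent replicates).

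Baclofen replicate 3 stood apart from the other arrays. The mean of 19 skeletal muscle genes was 9.34 in this array, against 6.20 to 7.14 in the other 7 arrays at 1 day and at most 7.40 in the other 19 marrow arrays. All 19 of these genes were highest in it. Mylpf, the fast muscle myosin regulatory light chain, read 7.75, 7.97, 8.09 and 7.60 with vehicle and 7.77, 7.87, 10.25 and 8.07 with baclofen. The same array also lay closer to vehicle in genes that are not of muscle. On the first principal component of the 8 arrays it lay at -4.09, among the vehicle arrays (-18.97 to -3.47) and below the other baclofen arrays (12.14 to 17.52). The part of the muscle transcripts in the smaller differences was not tested, and counts over gene lists are given with and without this array where they differed.

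The genes that rose or fell at 5 days were read in each 1 day array. Their differences come from the 5 day arrays, although the 1 day arrays, replicate 3 included, entered the estimate of spread behind those calls. The 671 genes that were higher at 5 days had a median of 0.26, 0.23 and 0.29 above the 1 day vehicle mean in baclofen replicates 1, 2 and 4, and of 0.07 in replicate 3. The 429 genes that were lower at 5 days had a median of -0.42, -0.27 and -0.37 in replicates 1, 2 and 4, and of -0.09 in replicate 3. In replicate 3, 66.8% of the first set and 76.0% of the second differed from the vehicle mean in the direction seen at 5 days. The corresponding shares in the other 3 arrays were 94.8% to 98.1% and 92.8% to 98.6%. Of all genes tested, 47.7% lay above the vehicle mean in replicate 3 and 48.3% to 53.5% in the other 3 arrays. In both sets replicate 3 had the median nearest to 0.

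**Figure D1:**
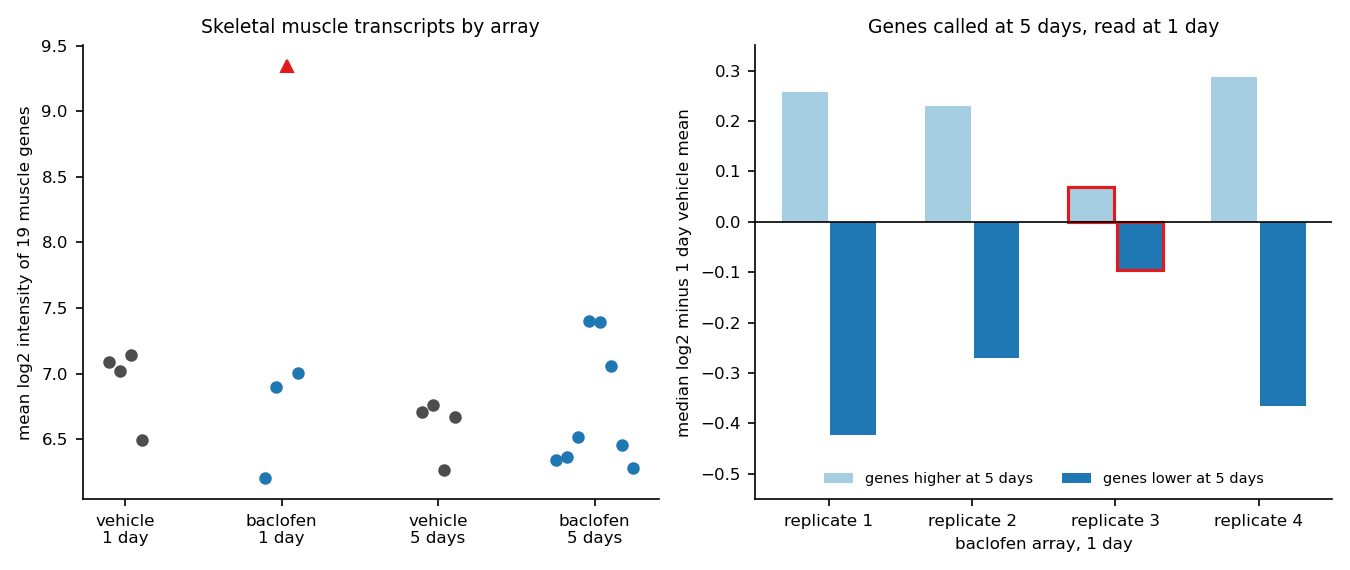
Left, the mean log2 intensity of 19 skeletal muscle genes in each of the 20 marrow arrays, with baclofen 1 day replicate 3 as a red triangle at 9.34 and the other arrays between 6.20 and 7.40. Right, the median log2 difference from the 1 day vehicle mean of the 671 genes higher and the 429 genes lower at 5 days, in each 1 day baclofen array; the bars of replicate 3, outlined in red, are the shortest at 0.07 and -0.09.

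After 1 dose, 803 genes (7.36% of those tested) passed the test, of which 339 rose (3.11%) and 464 fell (4.25%). Most changes were small. The median rise was 0.35 and the median fall -0.37 on the log2 scale, and the median of all genes tested was 0.00. The level at least doubled in 11 of the genes that rose, and 2 of those that fell were lowered at least 2-fold. The values of the 2 groups did not overlap for 1447 genes (13.3% of those tested), among them 284 of the 339 that rose and 392 of the 464 that fell. Without baclofen replicate 3, 1412 genes passed (12.9%), 572 higher (5.24%) and 840 lower (7.70%). Of the 803 genes, 770 passed again, 0 changed sign and 691 showed a larger difference. Replicate 3 was the lowest of the baclofen arrays in 233 of the 339 rises and the highest in 340 of the 464 falls, whereas over all genes it was lowest in 34.6% and highest in 29.9%. The count also moved with other arrays. It was 303 without baclofen replicate 1, 423 without replicate 2 and 349 without replicate 4, and 369 without vehicle replicate 3 and 533 without vehicle replicate 4. With the 8 arrays fitted alone, so that the 5 day arrays added nothing to the estimate of spread, 269 genes passed, and 1369 without replicate 3. Of the 68 called genes described below, 31 kept their call in the fit of the 8 arrays and 37 lost it. Those that kept it were Cirbp, Dusp1, Per1, Ddit4, Nfkbia, Pik3ip1, Birc3, Klf3, Fos, Arrdc3, Hnrnpdl, Txnip, Klf11, Klf9, Ucp3, Acot2, Mlxip and Tsc22d3, which rose, and Ifit1bl2, Ifit1bl1, Tra2a, Bex6, Thap2, Chordc1, Ltb, Ier5, Klf4, Hnmt, Nprl2, Hk2 and Ccr2, which fell.

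The largest rises were in Cirbp, Ddit4, Per1 and Dusp1. Cirbp, a cold-inducible RNA-binding protein, read 7.93, 7.81, 7.13 and 7.47 with vehicle and 10.14, 10.14, 9.53 and 10.20 with baclofen. The groups did not overlap, and the lowest baclofen array, replicate 3, lay well above the highest vehicle array. Ddit4, an inhibitor of mTORC1 that is induced by stress and by glucocorticoids, read 7.61, 8.94, 8.05 and 8.09 against 10.94, 10.36, 9.96 and 10.65. Per1, a circadian repressor that also responds directly to hormones, read 6.88, 7.91, 7.20 and 7.20 against 9.59, 9.66, 8.98 and 9.51. In both genes vehicle replicate 2 was the highest vehicle array and baclofen replicate 3 the lowest baclofen array, with no overlap. The 3 genes were 5.33-fold, 4.93-fold and 4.40-fold higher, with differences of 2.41 ± 0.25, 2.30 ± 0.31 and 2.14 ± 0.22, and adjusted p of 3.74e-05, 0.000615 and 3.74e-05 (limma). Dusp1, a phosphatase that switches off MAP kinases, read 9.58, 10.08, 9.92 and 9.80 against 11.63, 11.75, 11.11 and 11.64, a rise of 1.69 ± 0.21 (adjusted p = 0.000421). Its groups did not overlap either. These 4 calls held without any 1 array, with adjusted p of at most 0.00317, the value of Ddit4 without baclofen replicate 1.

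**Figure D2:**
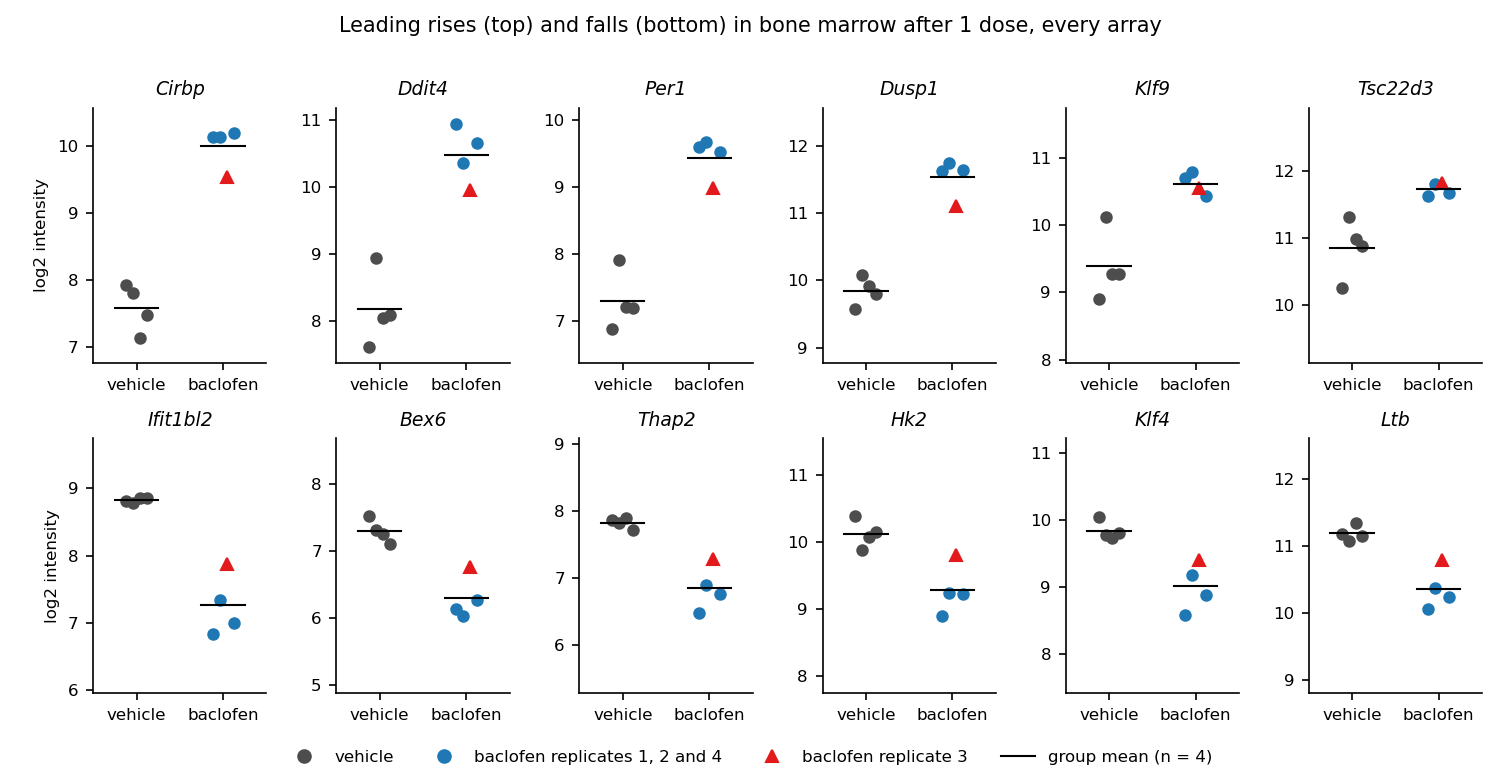
Log2 intensity of 6 genes that rose (top) and 6 that fell (bottom) in each of the 4 vehicle and 4 baclofen arrays at 1 day; every panel spans the same number of log2 units, bars are group means, and baclofen replicate 3 is the red triangle. No panel shows overlap between the groups, and replicate 3 is the baclofen array nearest to vehicle in all panels but those of Klf9 and Tsc22d3.

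Of 20 glucocorticoid response genes tested, 9 rose, 2 fell and 9 did not pass, with a median of 0.59. Without replicate 3, 10 rose and 3 fell. For this and the following lists, the shares over all genes tested were 3.11% risen and 4.25% fallen. Without replicate 3 they were 5.24% and 7.70%. The mean of the 20 genes was 9.33, 10.04, 9.52 and 9.57 with vehicle and 10.22, 10.48, 10.29 and 10.22 with baclofen. Vehicle replicate 2 was the highest of the vehicle arrays, and the groups did not overlap. The list was chosen with earlier results of these data known, so its direction is a description. Apart from Per1, Ddit4 and Dusp1, Klf9, a Kruppel-like factor, rose by 1.23 ± 0.22 and Tsc22d3, the glucocorticoid-induced leucine zipper, by 0.88 ± 0.16. Nfkbia, the inhibitor of NF-kB, rose by 0.50 ± 0.07 (adjusted p = 0.000615), and Sgk1, a serum- and glucocorticoid-regulated kinase, by 0.56 ± 0.11 (adjusted p = 0.00526).

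Tsc22d3 and Klf9 differ from most of the leading genes in that baclofen replicate 3 responded fully. Tsc22d3 read 10.26, 11.31, 10.98 and 10.88 with vehicle and 11.62, 11.81, 11.83 and 11.68 with baclofen, where replicate 3 was the highest. Klf9 read 8.91, 10.13, 9.28 and 9.27 against 10.70, 10.79, 10.56 and 10.44. The groups were apart in both genes, and vehicle replicate 2 was the highest vehicle array. Fkbp5, a co-chaperone of the glucocorticoid receptor, read 9.82, 11.20, 10.43 and 10.66 against 10.74, 11.16, 11.50 and 10.90, and Zbtb16 read 8.12, 8.34, 7.71 and 8.26 against 7.99, 9.06, 8.99 and 8.73. Neither passed at 1 day (0.55 ± 0.21, adjusted p = 0.109, and 0.58 ± 0.21, adjusted p = 0.0920), and their groups overlapped. At 5 days Fkbp5 rose by 0.94 (adjusted p = 0.00529) and Zbtb16 by 1.05 (adjusted p = 0.00340).

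The metallothionein genes, which bind zinc and other metals, were also higher. Mt2 read 9.54, 10.56, 9.62 and 9.58 against 10.75, 11.47, 10.69 and 10.71, a rise of 1.08 ± 0.25 (adjusted p = 0.0126). Mt1 read 10.92, 11.17, 10.57 and 10.58 against 11.22, 11.89, 11.28 and 11.19, a rise of 0.59 ± 0.17 (adjusted p = 0.0414). In both, replicate 2 was the highest array of each group. The call of Mt2 was lost without baclofen replicate 2 (adjusted p = 0.0518), and that of Mt1 without any 1 array other than vehicle replicate 2 or baclofen replicate 3 (adjusted p up to 0.139). Of the list members that fell, Cebpd, a transcription factor of granulocytes, read 11.42, 11.58, 11.58 and 11.39 against 10.32, 10.62, 11.33 and 10.58. It fell by 0.78, and its call was lost without baclofen replicate 1 or 4 (adjusted p up to 0.0706). Nr3c1, the glucocorticoid receptor, fell by 0.25 (adjusted p = 0.0340), from 9.89 to 10.02 with vehicle to 9.55 to 9.80 with baclofen. Its groups were apart, but its call held only without vehicle replicate 1 or baclofen replicate 3, with adjusted p up to 0.140 without the others.

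The promoters of the genes that rose or fell were searched for the letters of several transcription factors. RefSeq windows (GRCm38.p6) of the 250 bases before each annotated start were read on both strands for 2 patterns of the glucocorticoid receptor (the longer is a palindrome of G, any base, ACA, any 3 bases, TGT, any base and C, and the shorter is TGTTCT), 2 of CREB (TGACGTCA and the shorter TGACG within it), the E-box CACGTG, a heat shock pattern (TTCNNGAA) and an interferon pattern (GAAA, any 2 bases and GAAA). N is any base. TGTTCT can overlap the palindrome. The longer receptor pattern occurred in 127 of all 32851 windows (0.387%) and in 24 of 8875 tested genes with a window (0.270%). It occurred in 5 of 267 genes that rose (1.87%) and in 1 of 382 that fell (0.262%). The 5 that rose were Sgk1, Txnip, Mt1, Slc10a6 and Stx17, and the 1 that fell was Fem1a. As a ratio between rising and falling genes the other shares differed less, whereas in percentage points TGACG differed more. The palindrome counts are small, and Sgk1, Mt1, Slc10a6 and Stx17 lost their calls in the fit of the 8 arrays. TGTTCT was found in 16.1% of all windows, 15% of rising genes and 13.4% of falling genes, TGACGTCA in 1.55%, 3.00% and 2.88%, TGACG in 17.8%, 33.7% and 27.5%, CACGTG in 6.02%, 8.99% and 8.64%, TTCNNGAA in 7.17%, 6.74% and 6.81%, and the interferon pattern in 2.98%, 2.25% and 3.93%. Among tested genes the last 5 occurred in 2.91%, 30.7%, 10.1%, 7.11% and 3.29%, and TGTTCT in 12.9%. A match describes letters only and is neither a site nor a cause.

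Of the 22 leading genes searched, 21 had a window and none held the palindrome there. No pattern was found in the windows of Ddit4, Pik3ip1, Mt2, Ankrd22, Bex6, Olr1, Thap2, Il1f9 or Hnmt. The CREB and E-box patterns were not confined to rises. Among the leading falls, Klf4 held TGACG and CACGTG and Hk2 held TGACG, read on either strand. The windows below are shown because they hold the receptor pattern in genes that rose (Sgk1, Mt1 and Txnip), the CREB and E-box patterns in leading rises (Dusp1 and Per1), or 2 interferon patterns in the leading fall (Ifit1bl2). All the windows shown were thus chosen by their matches, after the search. The other window of Per1 held TGACG, and that of Ifit1bl2 held no pattern. The windows are 5′ to 3′ on the gene's strand, and capitals mark every match to the 7 patterns.
Sgk1, plus strand, chr10:21993640-21993889: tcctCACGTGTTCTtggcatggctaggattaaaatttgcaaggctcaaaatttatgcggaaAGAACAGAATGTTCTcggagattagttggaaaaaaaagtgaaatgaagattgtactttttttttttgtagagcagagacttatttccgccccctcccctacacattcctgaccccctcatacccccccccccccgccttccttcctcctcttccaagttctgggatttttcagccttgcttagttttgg
Mt1, plus strand, chr8:94178839-94179088: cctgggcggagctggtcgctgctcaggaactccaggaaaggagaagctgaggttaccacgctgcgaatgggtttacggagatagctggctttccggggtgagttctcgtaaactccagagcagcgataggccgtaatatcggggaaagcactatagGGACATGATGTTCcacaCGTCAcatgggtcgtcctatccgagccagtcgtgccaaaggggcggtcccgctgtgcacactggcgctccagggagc
Txnip, plus strand, chr3:96557707-96557956: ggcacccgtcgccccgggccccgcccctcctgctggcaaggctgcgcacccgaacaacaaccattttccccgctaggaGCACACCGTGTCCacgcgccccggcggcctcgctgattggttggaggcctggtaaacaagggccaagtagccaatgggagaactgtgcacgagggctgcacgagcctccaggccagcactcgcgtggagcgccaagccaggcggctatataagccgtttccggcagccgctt
Dusp1, minus strand, chr17:26508473-26508722: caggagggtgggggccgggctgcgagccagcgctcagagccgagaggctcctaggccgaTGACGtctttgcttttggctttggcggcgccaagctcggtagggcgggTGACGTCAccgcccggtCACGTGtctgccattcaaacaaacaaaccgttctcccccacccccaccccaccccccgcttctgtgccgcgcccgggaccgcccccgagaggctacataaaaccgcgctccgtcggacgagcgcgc
Per1, plus strand, chr11:69098699-69098948: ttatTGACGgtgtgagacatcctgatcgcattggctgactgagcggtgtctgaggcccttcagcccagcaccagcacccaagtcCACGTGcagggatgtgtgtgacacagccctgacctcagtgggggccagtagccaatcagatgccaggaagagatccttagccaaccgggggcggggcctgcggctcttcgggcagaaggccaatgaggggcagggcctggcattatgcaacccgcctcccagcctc
Ifit1bl2, minus strand, chr19:34640744-34640993: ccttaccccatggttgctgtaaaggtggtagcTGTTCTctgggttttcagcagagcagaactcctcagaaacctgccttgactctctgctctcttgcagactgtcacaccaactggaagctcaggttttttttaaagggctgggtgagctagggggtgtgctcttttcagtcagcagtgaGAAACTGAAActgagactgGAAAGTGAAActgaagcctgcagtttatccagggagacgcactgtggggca

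Sgk1 had 6 windows, for different annotated starts, and the longer receptor pattern lay only in the window shown. A gene with more windows had more chances of a match. In that window the pattern began 188 bases before the start and overlapped the shorter pattern on both strands (TGTTCT and AGAACA). Sgk1 read 8.98, 9.70, 9.48 and 9.60 with vehicle and 10.08, 10.09, 9.91 and 9.93 with baclofen. In Txnip, a brake on glucose uptake, the pattern began 172 bases before the start, and the gene read 11.34, 11.42, 11.45 and 11.53 against 12.06, 11.98, 11.77 and 12.09. The groups of both genes were apart, and both calls held without any 1 array. Slc10a6, a sulfated steroid transporter, rose by 0.62 ± 0.16 (adjusted p = 0.0252) with overlapping groups, from 5.98 to 6.77 up to 6.62 to 7.17. Its call was lost without vehicle replicate 3 or 4 or baclofen replicate 1 or 2 (adjusted p up to 0.0980). Stx17, an autophagy syntaxin, rose by 0.31 ± 0.08 (adjusted p = 0.0210). Of its other tested probe sets, 1 read 0.31 (adjusted p = 0.0282) and 2 read -0.12 and -0.09 (adjusted p = 0.386 and 0.425). Its call was lost without vehicle replicate 1 or 3 or baclofen replicate 2 or 4 (adjusted p up to 0.0758).

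Of 13 tested genes of the cAMP and CREB response, 4 rose and 0 fell, with a median of 0.22. They were Per1, Dusp1, Fos and Sik1, and the first 2 also stand in the glucocorticoid list. Without replicate 3, 5 rose and 1 fell, with a median of 0.16. Fos, an immediate early transcription factor, read 8.27, 8.59, 8.26 and 8.31 against 9.12, 9.51, 9.0 and 9.58, a rise of 0.95 ± 0.17 (adjusted p = 0.00295). Its groups did not overlap. Sik1, a salt-inducible kinase, rose by 0.40 ± 0.11, a call lost without any 1 array other than vehicle replicate 1 or baclofen replicate 3 (adjusted p up to 0.118). Of 18 immediate early genes, Fos alone rose and 3 fell, or 4 without replicate 3, with a median of -0.03. Ier5, a regulator of heat shock factor 1, read 9.64, 9.82, 9.90 and 9.82 against 8.98, 9.28, 9.46 and 9.20, without overlap. It fell by 0.57 (adjusted p = 0.00498). Another tested probe set of Ier5 read -0.26 (adjusted p = 0.253). The AP-1 subunit Fosl2 and Zfp36, which speeds the decay of cytokine messengers, fell by 0.63 and 0.40 with overlapping groups. Their calls were lost without vehicle replicate 2, 3 or 4 or baclofen replicate 1, 2 or 4 (adjusted p up to 0.153 and 0.151), and held without the other 2 arrays.

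Per1 was the only one of 19 circadian clock genes that passed, and the median of the list was -0.06. Without replicate 3, 2 of the 19 rose and the median was -0.11. Cirbp rose with 2 of the other 19 tested genes of cold-inducible and splicing factors, and 1 fell. Hnrnpdl rose by 0.48 ± 0.08 and Srsf5 by 0.37 ± 0.10, whereas Tra2a, also a splicing factor, fell by 0.56 (adjusted p = 0.00711). Tra2a read 10.59, 10.76, 10.74 and 10.50 with vehicle and 10.22, 9.99, 10.03 and 10.12 with baclofen, without overlap. Hnrnpdl had 7 tested probe sets, of which 5 passed with differences of 0.48 to 0.77 and 2 read -0.05 and -0.12 (adjusted p = 0.732 and 0.538). The call of Srsf5 was lost without vehicle replicate 1 or 3 or baclofen replicate 1 or 4 (adjusted p up to 0.0971).

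The Kruppel-like factors, zinc finger transcription factors, moved both ways. Of 12 tested, 4 rose and 1 fell, and without replicate 3, 4 rose and 3 fell. Klf9 is given above. Klf11 read 8.62, 8.58, 8.37 and 8.30 against 9.55, 9.51, 8.83 and 9.48, a rise of 0.87 ± 0.17 (adjusted p = 0.00570). Klf3 read 11.32, 11.46, 11.59 and 11.51 against 12.12, 12.21, 11.88 and 12.22, a rise of 0.64 ± 0.11. Other tested probe sets of Klf3 read 0.96 and 0.51 (adjusted p = 0.0109 and 0.0343), and 0.48, 0.32 and 0.12 (adjusted p = 0.152, 0.292 and 0.703). Klf10 rose by 0.39 ± 0.07. Klf4, which drives monocyte differentiation, read 10.04, 9.77, 9.73 and 9.81 against 8.58, 9.18, 9.40 and 8.88. It fell by 0.83 (adjusted p = 0.00209). Baclofen replicate 3 was the baclofen array nearest to vehicle in Klf3, Klf4, Klf10 and Klf11, and no groups overlapped. These 5 calls held without any 1 array.

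Regulators of nutrient use changed in small numbers. Of 7 tested alpha-arrestins and Mlx factors, which link glucose to transcription and receptor traffic, 3 rose (4 without replicate 3) and 1 fell, with a median of 0.28. Arrdc3, an adaptor that brings down adrenergic receptors, read 9.58, 9.57, 9.60 and 9.62 against 10.87, 10.73, 10.11 and 10.96. The vehicle arrays lay within a narrow range below all baclofen arrays, and the rise was 1.07 ± 0.16 (adjusted p = 0.000918) and 1.26 without replicate 3. Txnip rose by 0.54 ± 0.09, Mlxip, which senses glucose with Mlx, by 0.52 ± 0.12, and Mlx fell by 0.39. The call of Mlx was lost without vehicle replicate 1 or 2 or baclofen replicate 1, 2 or 4 (adjusted p up to 0.0839).

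Of 17 FOXO and insulin-repressed genes, 3 rose (4 without replicate 3) and 1 fell, with a median of 0.09. Pik3ip1, which restrains PI3-kinase, read 7.49, 8.39, 7.47 and 7.77 against 9.21, 9.05, 9.04 and 9.24. Replicate 3 was close to the other baclofen arrays, the groups were apart, and the rise was 1.35 ± 0.18 (adjusted p = 0.000615). Txnip and Sesn1, a stress-induced inhibitor of mTORC1, also rose, Sesn1 by 0.44 ± 0.12. The call of Sesn1 held only without baclofen replicate 3, and that of Bcl6, which fell by 0.51, only without that array or vehicle replicate 4. The adjusted p of Sesn1 reached 0.136 without another array and that of Bcl6 0.110. Of 18 mTORC1 regulators Ddit4 and Sesn1 rose (3 genes without replicate 3), and Nprl2, part of an amino acid sensing complex, fell by 0.32 (adjusted p = 0.00552).

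Of 15 genes of fat oxidation, 3 rose and 0 fell (1 without replicate 3), with a median of 0.14. Ucp3, a mitochondrial uncoupling protein, read 6.52, 6.68, 6.46 and 6.56 against 7.20, 6.81, 7.00 and 7.06. It rose by 0.46 ± 0.09 (adjusted p = 0.00632). Pnpla2, the first lipase of fat breakdown, rose by 0.39 ± 0.08, and Acot2, a mitochondrial thioesterase, by 0.34 ± 0.07. The call of Pnpla2 was lost with the mean of its 2 probe sets, the other of which was too dim to be tested (0.15, adjusted p = 0.104), and in the 8 arrays alone (adjusted p = 0.0644). The groups of all 3 were apart. Of 16 genes of glycolysis and glucose uptake 1 fell and 0 rose, where 4.25% of all genes tested fell, and the median was -0.18. Hk2, hexokinase 2, read 10.39, 9.89, 10.07 and 10.15 against 8.90, 9.24, 9.80 and 9.22. It fell by 0.84 (adjusted p = 0.00852), and without replicate 3 by 1.01, when 4 of the 16 genes fell with a list median of -0.26. The mean of the list was 10.70 to 10.83 with vehicle, and 10.33, 10.55, 10.80 and 10.41 with baclofen, so that only replicate 3 lay within the vehicle range. Of 15 hypoxia genes 2 rose and 1 fell. Pdk1, which holds back pyruvate oxidation, rose by 0.35 ± 0.07, although its other tested probe sets read 0.26 and -0.04 (adjusted p = 0.0699 and 0.789). Vegfa, a growth factor for vessels, fell by 0.45, a call lost without baclofen replicate 1 (adjusted p = 0.0653). Another tested probe set of Vegfa read -0.18 (adjusted p = 0.352).

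Bmf and Ccn1 were also among the largest rises. Bmf, a BH3-only member of the BCL2 family that promotes apoptosis, read 7.59, 7.79, 7.42 and 7.68 against 9.24, 8.70, 7.91 and 9.04. It rose by 1.10 ± 0.31 and was the only one of 13 tested members of the family to pass. Without replicate 3, 2 of the family rose and 1 fell. Ccn1, a matricellular protein, read 6.41, 7.57, 6.25 and 6.45 against 8.02, 8.90, 7.24 and 8.59, a rise of 1.52 ± 0.40 with overlap at vehicle replicate 2. The call of Bmf (adjusted p = 0.0377) held only without baclofen replicate 3, and that of Ccn1 (adjusted p = 0.0255) only without that array or vehicle replicate 2. The highest adjusted p without another array was 0.140 for Bmf and 0.0870 for Ccn1.

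Of 8 tested osteoclast genes 2 rose and 0 fell, with a median of 0.32. Without replicate 3, 3 rose and 1 fell. At 5 days 0 rose and 0 fell, with a median of -0.05. Acp5, tartrate-resistant acid phosphatase, read 9.90, 10.85, 10.40 and 10.54 against 11.45, 12.13, 10.98 and 10.75, a rise of 0.91 ± 0.22 (adjusted p = 0.0157). Atp6v0d2, a subunit of the osteoclast proton pump, read 6.30, 6.78, 6.39 and 6.43 against 7.38, 8.57, 7.27 and 6.58, a rise of 0.98 ± 0.26 (adjusted p = 0.0277). Baclofen replicate 2 was the highest array in both, and replicate 4 overlapped with vehicle. Ctsk, cathepsin K, read 7.48, 9.31, 7.44 and 8.42 against 9.71, 10.79, 8.99 and 8.11, a difference of 1.24 ± 0.45 that did not pass (adjusted p = 0.0997). The bone matrix genes varied in the same arrays, with an osteoblast mean of 8.50 to 10.01 with vehicle and 9.22 to 10.11 with baclofen, highest in replicate 2 of both groups, and their part in these rises was not tested. Without baclofen replicate 1 the call of Acp5 was lost (adjusted p = 0.0563). That of Atp6v0d2 was lost without vehicle replicate 1, 3 or 4 or baclofen replicate 1 or 2 (adjusted p up to 0.0715). Another tested probe set of Atp6v0d2 read 0.84 (adjusted p = 0.117). In the limma fit of the 8 arrays alone Acp5 and Atp6v0d2 did not pass (adjusted p = 0.119 and 0.148). Nor did they pass there without replicate 3.

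**Figure D3:**
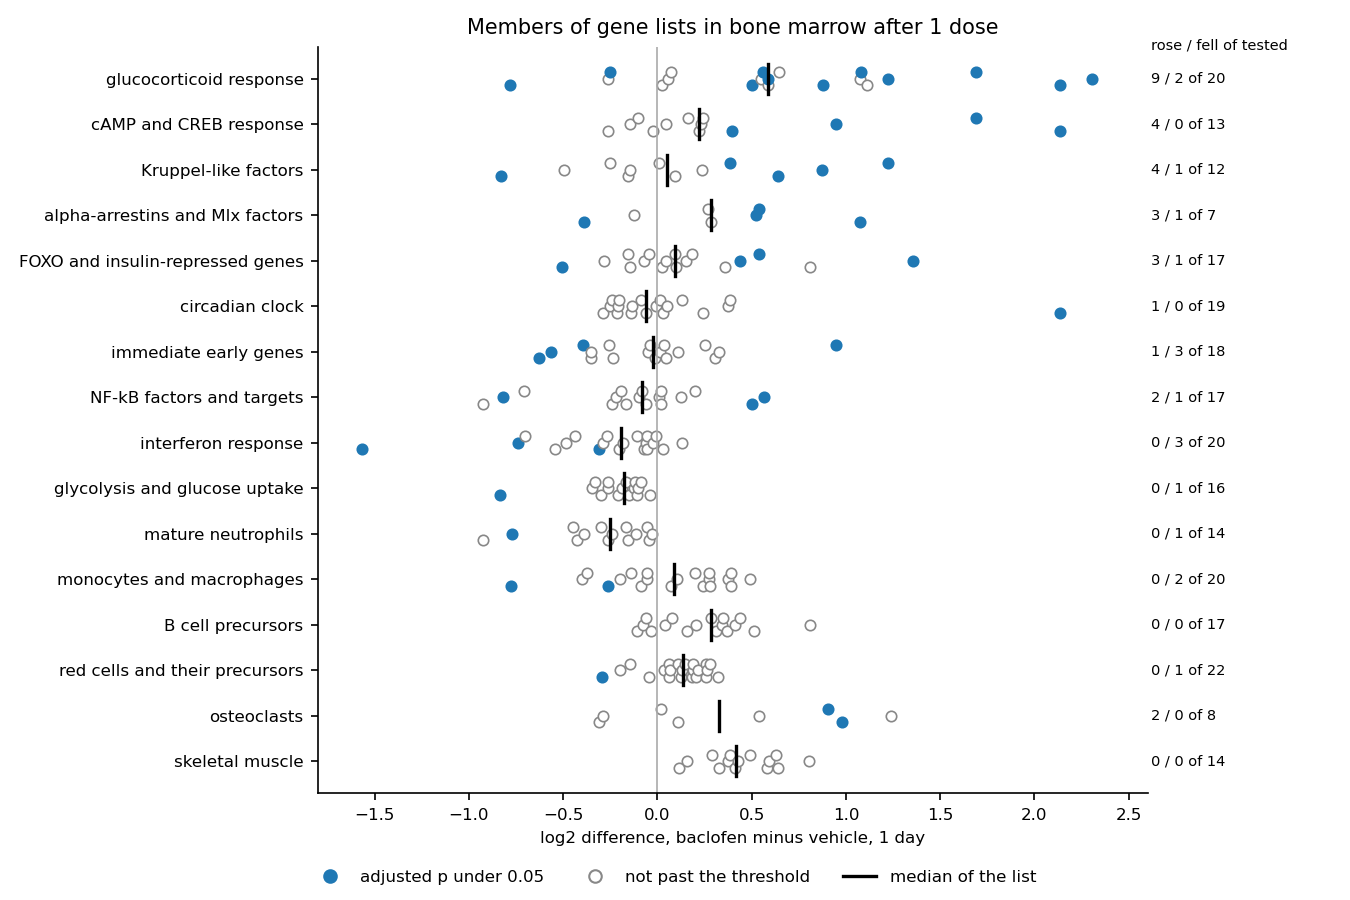
Log2 difference between baclofen and vehicle at 1 day for each tested member of 16 gene lists; filled points passed the test at an adjusted p under 0.05, open points did not, black bars are list medians, and the numbers at the right count the members that rose and fell. The glucocorticoid list has the highest median, 0.59, and the 14 neutrophil genes all lie at or below 0.

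The largest fall was in Ifit1bl2, a member of the interferon-induced Ifit family. It read 8.82, 8.79, 8.85 and 8.86 with vehicle and 6.84, 7.34, 7.87 and 7.00 with baclofen. The vehicle arrays were almost equal and all baclofen arrays lay below them. The level was 2.96-fold lower (-1.57 ± 0.20, adjusted p = 0.000421), and the difference was -1.77 without replicate 3. Of 20 tested interferon response genes 3 fell and 0 rose, with a median of -0.19, and the other calls were weaker. Ifit1bl1 fell by 0.74 (adjusted p = 0.0132), lost without vehicle replicate 3 or baclofen replicate 1 (up to 0.0545). Irf1, an interferon-induced transcription factor, fell by 0.31 (adjusted p = 0.0410), a call that held only without vehicle replicate 2 or baclofen replicate 3 (up to 0.157). Oas2, an RNA sensor outside the list, read 9.14, 8.67, 8.49 and 9.31 against 7.99, 8.22, 8.34 and 7.81. It fell by 0.81, with calls lost without vehicle replicate 1 or 4 or baclofen replicate 1 or 4 (up to 0.0890). The mean of the whole list overlapped between groups, at 8.89 to 9.48 with vehicle and 8.68 to 9.21 with baclofen.

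The other leading falls included genes of inflammation and of myeloid cells. Bex6 read 7.53, 7.31, 7.25 and 7.11 against 6.14, 6.03, 6.77 and 6.28, and Thap2, a zinc finger protein, read 7.87, 7.82, 7.89 and 7.72 against 6.48, 6.90, 7.28 and 6.77. Neither overlapped, and they fell by 1.00 (adjusted p = 0.00163) and 0.97 (adjusted p = 0.000959). Hnmt, which inactivates histamine, read 8.01, 8.03, 8.09 and 8.07 against 7.01, 7.30, 7.73 and 6.81, again without overlap. Ltb, lymphotoxin beta, read 11.18, 11.07, 11.34 and 11.14 against 10.06, 10.37, 10.78 and 10.23. It fell by 0.82 (adjusted p = 0.00118). In all 4 genes baclofen replicate 3 was the baclofen array nearest to vehicle, and without it the falls were 1.15, 1.11, 1.00 and 0.96. Of 17 tested NF-kB factors and targets Nfkbia and Birc3 rose and Ltb fell, and without replicate 3 the same count rose and 3 fell. Birc3, an inhibitor of apoptosis, read 9.90 to 10.22 with vehicle and 10.52 to 10.72 with baclofen, a rise of 0.57 ± 0.08 (adjusted p = 0.000630).

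Snai2, a repressor that acts in blood stem cells and mesenchymal cells, read 7.90, 8.80, 8.24 and 8.81 against 7.07, 7.68, 7.73 and 6.97 and fell by 1.07 (adjusted p = 0.0133). Ankrd22 read 9.31, 8.97, 9.18 and 8.94 against 7.37, 8.25, 8.71 and 8.07, a fall of 1.00 (adjusted p = 0.0147). Both were without overlap. Olr1, a scavenger receptor for oxidized lipoprotein, fell by 0.99 (adjusted p = 0.0242), from 8.32 to 8.74 with vehicle to 6.93 to 8.31 with baclofen. Il1f9, a cytokine of the interleukin 1 family, fell by 0.96 (adjusted p = 0.0184) with overlap at baclofen replicate 3. All 4 calls were lost without baclofen replicate 1 (adjusted p from 0.0565 in Snai2 to 0.104 in Olr1). Those of Snai2, Olr1 and Il1f9 were also lost without replicate 4, those of Olr1 and Il1f9 without baclofen replicate 2 or vehicle replicate 3, and that of Olr1 without vehicle replicate 1.

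The markers of most cell types did not pass the test. Of 14 tested genes of mature neutrophils 1 fell and 0 rose, with a median of -0.25. Clec5a, a receptor of myeloid cells, read 10.06, 10.34, 10.01 and 10.17 against 9.08, 9.27, 9.96 and 9.19. It fell by 0.77 (adjusted p = 0.0117), a call lost without baclofen replicate 1 (adjusted p = 0.0548). The mean of the list was 10.40 to 10.51 with vehicle and 9.94, 10.14, 10.52 and 10.06 with baclofen. Replicate 3 lay above the vehicle arrays and the other 3 below them. Without it 3 genes fell, among them Il1b, interleukin 1 beta, which read 9.43, 9.69, 9.98 and 9.39 against 8.60, 8.48, 9.52 and 8.20. The difference in Il1b was -0.92 (adjusted p = 0.0662) with replicate 3 and -1.20 (adjusted p = 0.0114) without it. None of the 11 primary granule genes and none of the 12 secondary and tertiary granule genes passed, with medians of -0.19 and -0.08. Without replicate 3 the medians were -0.31 and -0.12, and 1 gene fell in the second list. The primary granule mean was 12.05 to 12.29 with vehicle and 11.87, 11.95, 12.27 and 11.76 with baclofen. The secondary and tertiary granule mean was 13.35 to 13.51 with vehicle and 13.17, 13.29, 13.53 and 13.27 with baclofen. In both lists the other 3 baclofen arrays lay below all vehicle arrays, and replicate 3 did not.

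Of 20 tested genes of monocytes and macrophages 2 fell and 0 rose, with a median of 0.09. Without replicate 3, 3 fell and 2 rose. Ccr2, the chemokine receptor with which monocytes leave marrow, read 11.83, 11.26, 11.26 and 11.33 against 10.25, 10.80, 10.93 and 10.61, without overlap. It fell by 0.78 (adjusted p = 0.0131), and its call was lost without baclofen replicate 1 (adjusted p = 0.0625). Irf8, a transcription factor of monocytes and dendritic cells, fell by 0.26, a call lost without any 1 vehicle array but replicate 2 or without baclofen replicate 1 (adjusted p up to 0.114). Another tested probe set of Irf8 read -0.34 (adjusted p = 0.174). Of 22 tested genes of red cells and their precursors only the transcription factor Nfe2 passed. It fell by 0.30 (adjusted p = 0.0111), a call lost without baclofen replicate 1 (adjusted p = 0.0545), and the median of the list was 0.14 (0.22 without replicate 3). At 5 days 15 of the 22 rose, with a median of 0.40.

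Genes of B cell precursors were higher in 3 baclofen arrays and lower in the fourth. None of 17 tested passed, with a median of 0.28. The list mean was 9.67 to 9.76 with vehicle and 10.26, 9.94, 9.36 and 10.30 with baclofen, so that replicate 3 lay below all vehicle arrays and the others above them. Cd79a, part of the B cell receptor, read 10.29, 10.20, 10.26 and 10.43 against 10.96, 10.77, 9.85 and 11.07. Ebf1, which commits cells to the B lineage, read 8.49, 7.77, 8.29 and 8.13 against 8.91, 8.70, 7.50 and 9.21. Without replicate 3 the list median was 0.41 and 1 gene passed. This was Il7r, the interleukin 7 receptor, which read 9.45, 9.73, 9.48 and 9.46 against 10.65, 10.32, 9.61 and 10.76 (1.05, adjusted p = 0.0385). Mature B cell markers were also lowest in replicate 3, with a mean of 8.78 to 8.96 with vehicle and 9.09, 8.96, 8.40 and 9.16 with baclofen. Of the 16 tested, 1 fell, and without replicate 3, 2 rose and 1 fell. The gene that fell was Ltb, which is also counted among the NF-kB targets above.

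Few proliferation genes passed, where 3.11% of all genes tested rose and 4.25% fell. Of 29 DNA replication genes 2 rose, Tk1 by 0.29 ± 0.09 and Pole by 0.26 ± 0.08, with a median of 0.12. Both calls were lost without any 1 array other than baclofen replicate 3 (adjusted p up to 0.151 and 0.147). The mean of the DNA replication list was 10.57 to 10.60 with vehicle and 10.76, 10.66, 10.60 and 10.76 with baclofen. Only replicate 3 lay within the vehicle range, and without it the median was 0.15. At 5 days 7 of the 29 rose, with a median of 0.14. Of 23 mitosis genes 1 fell and 0 rose, with a median of 0.03. Of 19 heat shock chaperones 1 fell and 0 rose, with a median of -0.03. It was Chordc1, an HSP90 partner, which read 10.35, 10.35, 10.42 and 10.29 against 10.05, 9.86, 9.69 and 9.77 and fell by 0.51 (adjusted p = 0.00196). In 20 of the 50 lists no gene passed, and in 13 without replicate 3. These included ribosome biogenesis (28 genes), oxidative phosphorylation (21) and stem and progenitor cells (13), for which 0 passed in either fit.

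Few genes of the drug's own receptor system were bright enough to test. Of 19 listed genes of the GABA-B receptor and GABA handling, 16 had a value and 8 were tested. Gabbr1, a receptor subunit, read 7.53, 7.85, 7.92 and 7.82 against 7.67, 7.73, 7.71 and 7.66, a difference of -0.09 ± 0.09 (adjusted p = 0.579). The groups overlapped. A second tested probe set of Gabbr1 read 0.35 (adjusted p = 0.113), and Gabbr2 was not analysed here. Kcnj5, a potassium channel that such receptors can open, fell by 0.63 (adjusted p = 0.0481) with overlapping groups. Its call held only without vehicle replicate 1 (adjusted p up to 0.149 without another array).

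Leaving out baclofen replicate 3 brought in 642 genes and removed 33. Among the largest rises gained were Errfi1, a glucocorticoid-induced inhibitor of EGF receptor signalling, and Vdr, the vitamin D receptor. Errfi1 read 7.05, 8.71, 7.95 and 7.68 against 9.09, 9.51, 8.16 and 9.07, and its difference went from 1.11 (adjusted p = 0.0520) to 1.38 (adjusted p = 0.0130). Vdr read 5.93, 7.19, 6.85 and 6.88 against 7.43, 7.99, 7.19 and 7.61, and went from 0.84 (adjusted p = 0.0591) to 0.96 (adjusted p = 0.0327). Klf5 was among the falls gained (-0.50, adjusted p = 0.0524, and -0.63, adjusted p = 0.00951). Of the calls removed, Igkv6-14, an immunoglobulin light chain segment, read 9.34 in replicate 3 and 7.63 to 8.28 in the other baclofen arrays. Its difference went from 0.88 to 0.53 (adjusted p = 0.0657). Lims1, an adhesion adaptor, went from -0.50 to -0.45 (adjusted p = 0.0663). The calls of both were also lost without vehicle replicate 3 or 4 or baclofen replicate 2 or 4, that of Igkv6-14 without vehicle replicate 1 or 2 and that of Lims1 without baclofen replicate 1 (up to 0.104 and 0.144). The muscle myosin-binding gene Mybpc2 kept its call, at 1.07 with replicate 3 and 0.67 without it (adjusted p = 0.0229 and 0.0193). It read 8.32 in that array and 6.68 to 6.75 in the other baclofen arrays, against 5.66 to 6.25 with vehicle, and its call was lost without vehicle replicate 3 or 4 (up to 0.0666). None of the 14 tested muscle genes of the list passed.

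The response after 1 dose was compared with that after 5, each against its own vehicle arrays. At 5 days 671 genes were higher (6.15% of those tested) and 429 lower (3.93%). Of the genes that rose after 1 dose, 161 also rose after 5, which is 47.5% of the first set and 24.0% of the second. Of the genes that fell, 158 fell at both times, 34.1% and 36.8% of the sets, and 0 genes changed in opposite directions. Per1 rose by 2.14 after 1 dose and 2.22 after 5, and Ddit4 by 2.30 and 2.35. The corresponding differences were 2.41 and 1.34 in Cirbp, 1.07 and 0.36 in Arrdc3, and -0.78 and -0.19 in Ccr2. The change itself was tested. With limma 0 of 10916 genes passed, also when any 1 of the 8 arrays at 1 day was left out. Unadjusted, 559 had a p under 0.05, near the share that this threshold passes by chance. With array weights, which count deviant arrays less, 45 genes passed. The change from 1 to 5 days was -1.07 ± 0.33 in Cirbp and -0.71 ± 0.21 in Arrdc3 (adjusted p = 0.866 for both), and 0.08 ± 0.28 in Per1 (adjusted p = 0.987).

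**Figure D4:**
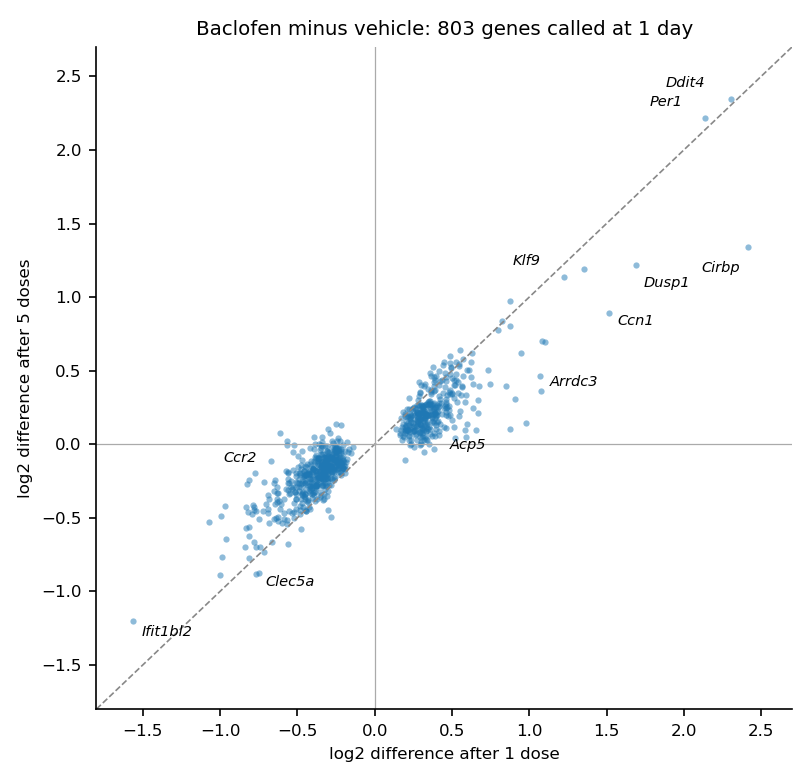
Log2 difference between baclofen and vehicle after 1 dose (x axis) and after 5 doses (y axis) for the 803 genes called after 1 dose; the dashed line marks equal differences. The genes were chosen by the x axis, which favours larger values there. Per1 and Ddit4 lie near the line, and Cirbp lies below it at 2.41 and 1.34.

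The response after 1 dose was also set against that of the spleen, through the difference between the baclofen effects in the 2 tissues. It passed for 125 of 10210 genes (1.22%). The effect in marrow was the more positive in 47 of them and the more negative in 78. In 87 of them the effects had opposite signs, in 100 the effect was larger in spleen, and 29 had also passed in marrow. The genes were chosen by the difference, which favours opposite signs, and the shares over all genes tested were not counted. Some of these signs belong to effects near 0, as that of Cd69 in marrow (-0.06 ± 0.15). The count of 125 moved to 305 without marrow baclofen replicate 3, and to 31, 40 and 25 without replicates 1, 2 and 4. Without marrow vehicle replicate 1 it was 51, and no spleen array was left out in turn. With the 16 arrays at 1 day fitted alone the count was 4. Of the 10 genes named here, only Ifit1bl2 (adjusted p = 0.0306) and Cd69 (adjusted p = 0.0486) kept their call in that fit. Klf4 fell in marrow by 0.83 and read 8.17, 8.76, 8.44 and 8.22 with vehicle and 9.01, 8.82, 8.63 and 9.02 with baclofen in spleen, an effect of 0.47. The difference was -1.30 ± 0.22 (adjusted p = 0.00200, and 0.0585 in the 16 arrays alone). Ifit1bl2 read 6.58 to 6.79 with vehicle and 6.51 to 6.63 with baclofen in spleen, without a fall of the size in marrow (difference -1.48 ± 0.22, adjusted p = 0.000689). Its spleen level was low already with vehicle, and whether a fall of that size could be seen from there was not tested. Snai2 also fell in marrow and had no fall of its marrow size in spleen (difference -1.20 ± 0.29, adjusted p = 0.0308). Without marrow vehicle replicate 2 or 4 or baclofen replicate 1 or 4 it did not pass (adjusted p up to 0.0787).

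In the other direction, Cd69, an early activation marker of lymphocytes, read 7.48, 7.78, 8.21 and 7.91 against 9.19, 8.98, 8.83 and 9.05 in spleen. In marrow it read 7.11, 7.30, 7.12 and 7.14 against 7.36, 7.03, 6.77 and 7.27. The groups were apart in spleen only, with effects of 1.17 and -0.06 (difference -1.23 ± 0.22, adjusted p = 0.00286). Neto2 read 6.40, 7.56, 6.45 and 6.72 with vehicle and 7.70, 7.98, 7.72 and 7.88 with baclofen in spleen. Its spleen groups were apart, with vehicle replicate 2 the nearest to baclofen. Neto2 had effects of 1.04 in spleen and -0.21 in marrow (difference -1.25 ± 0.24, adjusted p = 0.00797). Sap30, a subunit of the Sin3 corepressor, had effects of -0.81 in spleen and 0.12 in marrow (difference 0.93 ± 0.18, adjusted p = 0.00615). In Klf3, Asph, Jmy and Fcna the effect in marrow exceeded that in spleen by 0.84, 0.69, 0.68 and 1.07 (adjusted p = 0.0299, 0.0301, 0.0251 and 0.0353). These 4 were lost without marrow vehicle replicate 1 or baclofen replicate 1 or 4, and all but Jmy also without baclofen replicate 2 (adjusted p up to 0.0787).

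**Figure D5:**
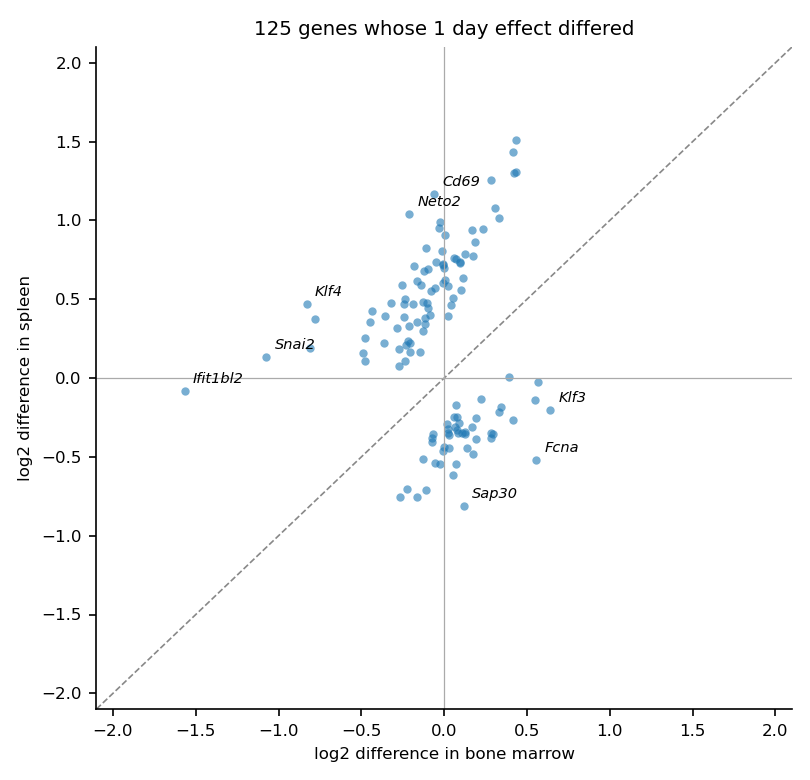
Log2 difference between baclofen and vehicle after 1 dose in bone marrow (x axis) and spleen (y axis) for the 125 genes whose effects differed between the tissues; the dashed line marks equal effects. Ifit1bl2, Snai2 and Klf4 lie at the left with effects of -1.57, -1.07 and -0.83 in marrow, and Cd69 and Neto2 lie at -0.06 and -0.21 in marrow and above 1 in spleen.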

How the data were processed

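Mouse bone marrow RNA was isolated with a PAXgene marrow kit and hybridised to Affymetrix whole-genome arrays, per the labels' protocols. The deposited values are intensities on a linear scale, made by the authors with RMA, and limma was also used, per the submitters' processing notes. Versions are not given in the sources used here. Array medians differed little (72.6 to 76.1 in marrow), and each tissue appears to have been normalized apart, so levels are not compared between tissues. Arrays give no counts, so their number limits the precision. Here, values were taken to log2. Of 45101 probe sets, 34945 had 1 gene symbol (932 had several, 9160 none, 64 were controls) and 34741 of these matched RefSeq (GRCm38.p6). They stand for 18193 genes, each given by its brightest probe set. Genes at or above the 40th percentile of mean level in marrow were tested (10916). The 20 marrow arrays were fitted as 4 groups with limma 3.58.1 (R 4.3.3). The difference from spleen came from a fit of all marrow and spleen arrays, on genes that passed the filter in both tissues. P-values of single probe sets come from a fit of all probe sets. Other tested probe sets of a named gene did not always pass, also where the text does not give them. The test was checked on simulated data with independent normal values and no deviant array. That check does not cover an array such as baclofen replicate 3.

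Members and lists were chosen with earlier results of these data known. The 50 lists hold 878 genes, of which 712 were tested. Named genes were taken from a set given by rule. It holds the 15 largest rises and falls, per list up to 4 called members by smallest adjusted p (2 with the largest differences where none passed), up to 5 genes each way in each difference test, and up to 5 that lost or gained a call without baclofen replicate 3. Sgk1, Mt1, Cebpd, Nr3c1, Klf5, Klf11, Slc10a6, Stx17, Fem1a, Fkbp5, Zbtb16, Cd79a, Ebf1, Ctsk, S100a8, Camp and Alas2 were added after their values were seen. The alternatives were other filters, normalizations, probe set rules and thresholds, array weights, and control probe sets or muscle markers as a covariate. Further ones were fits of only the 1 day arrays, a replicate block, and each 1 day marrow array left out in turn. No spleen array was left out. Promoter patterns were searched in RefSeq windows of 250 bases, and a gene counted when any of its windows matched.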

Additional observations from a re-analysis of the deposited data

Results flagged for a closer look

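In 16 of 182 sets of 4 arrays checked, 1 array lay far from the other 3 for its range, and chance does this in about 1 in 20 sets. Baclofen replicate 3 was the distant array at 9.53 in Cirbp, 8.32 in Mybpc2, 12.91 in Nfkbia, 10.11 in Sesn1, 8.83 in Klf11 and 10.25 in Mylpf, high in the muscle genes Mybpc2 and Mylpf and low in the others. Vehicle replicate 2 was high at 7.57 in Ccn1, 10.56 in Mt2, 8.59 in Fos, 12.64 in Nfkbia and 9.73 in Il7r, and low at 7.69 in Ifit1bl1. Baclofen replicate 2 was high at 11.47 in Mt2 and 11.89 in Mt1. Vehicle replicate 1 was high at 11.83 in Ccr2, and vehicle replicate 3 was low at 7.93 in Acot2.

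The effect of 1 dose differed between marrow and spleen in 125 genes by the test of the difference. Marrow minus spleen was -1.48 in Ifit1bl2, -1.30 in Klf4, -1.25 in Neto2, -1.23 in Cd69 and -1.20 in Snai2, and 1.07 in Fcna, 0.93 in Sap30, 0.84 in Klf3, 0.69 in Asph and 0.68 in Jmy.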

How the results depend on the processing

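The count of genes after 1 dose, 803, moved to 2416 with array weights, 225 at an adjusted p under 0.01, 97 with a minimum change of 1.5-fold, 1329 of 20967 probe sets tested apart, 269 in the 8 arrays alone (1369 without baclofen replicate 3), 1219 with muscle markers as a covariate, and 303 to 1412 without 1 array. The labels do not say whether the replicate numbers pair the samples. Deviations from the group mean correlated at -0.14, 0.27, 0.01 and -0.08 between same-numbered vehicle and baclofen arrays, which does not settle it. With the replicate number as a block 4 genes passed, and 2 in the difference from spleen. The change from 1 to 5 days stayed at 0 genes in the alternatives run except array weights, where it was 45. The difference from spleen, 125 genes, moved to 329 with quantile normalization, 2251 with array weights, 14 at an adjusted p under 0.01, 70 with at least 1.5-fold, 4 in the 16 arrays at 1 day, and 25 to 305 without 1 marrow array. Other filters, median centring, trend and robust options, the mean of probe sets and control probe sets as a covariate kept the counts they were run on within 1.5 times. None of the 68 called genes followed after 1 dose changed sign, and 18 kept their call in all alternatives but the stricter p and the block. A stricter threshold can only lower a count, and the cause of the other moves was not tested.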
